A study of Mus musculus with 2 samples.

Results

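Interstitial cells of Cajal are the pacemaker cells of gut muscle, and the genes described here are 6 that mark or maintain them: Kit, Kitl, Ano1, Etv1, Gpr20 and Thbs4. They were followed in esophagus RNA of E18.5 mouse fetuses, close to birth, on 2 Affymetrix arrays. The first array carries RNA labelled Myf5-/-:MyoD-/-, with the genotype given as BALB/c Myf5:Myod null, and the second carries RNA of a wild-type BALB/c esophagus. The products of Myf5 and Myod1 direct cells into the skeletal muscle lineage, and the series title concerns the replacement of smooth muscle by striated muscle in this organ. The sources used here do not say how the null alleles were made, nor how many embryos gave each RNA.

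Every probe set whose only gene symbol is one of the 6 was taken. This gave 10 probe sets for 5 of the 6 genes, out of 34945 probe sets for 18193 genes in all. Kitl had 4 probe sets, Kit and Ano1 had 2 each, and Gpr20 and Thbs4 had 1 each. All 3 probe sets annotated to Etv1 also carry a second symbol, so Etv1, an ETS transcription factor of these cells, has no values below. Values are MAS5 signals, Affymetrix's linear measure of brightness for 1 probe set. A low-signal limit of 489, the median of all signals of both arrays, stands in for detection calls, and signals under it were raised to it before ratios were taken. A gene is represented by its brightest probe set, and 13315 genes reached the limit on at least 1 array. With 1 array per genotype there is no replicate of either, so no difference below carries a test. The available measure of error is the SD of 0.56 (log2) between the ratios of different probe sets of 1 gene, taken over 5455 genes with 14307 such probe sets, which holds no variation between embryos.

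Interstitial cells of Cajal lie between enteric nerves and smooth muscle. The receptor tyrosine kinase Kit, activated by its ligand Kitl (stem cell factor), is needed for their development and upkeep, and Etv1 acts downstream of Kit. Pacemaking rests on calcium release from internal stores that opens the chloride channel Ano1, and gap junctions pass the current on to smooth muscle. Kit is not unique to them: mast cells, melanocytes and blood progenitors make it too.

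The arrays themselves differed in several controls. Of the targeted genes, Myf5 read 496 on the null array and 4072 on the wild-type array, 8.22-fold lower. Myod1 read 1698 and 2001 on the null and wild-type arrays, 1.18-fold lower. The sources used here do not place these probes against the deleted sequence, so the Myod1 signal checks nothing. Both arrays have the same trimmed mean signal of 1500, but the 18 hybridization control probe sets, bacterial and phage sequences added at hybridization, read a median of 3.57-fold higher on the null array. The poly-A controls, bacterial transcripts put into the RNA, had a median of 2.24-fold higher at 9 probe sets of the 3′ end and 1.43-fold higher at 9 of the 5′ end, where they ran from -0.60 to 0.78 on the log2 scale. On the null array 55.4% of probe sets lay at 489 or above, and on the wild-type array 44.6%. The ratio of 3′ to 5′ signal was 14.2 on the null and 12.6 on the wild-type array for beta-actin, and 6.96 on the null and 10.5 on the wild-type array for Gapdh. The Y-linked gene Eif2s3y read 2402 on the null array and 10.6 on the wild-type array, and Xist, made from the inactive X chromosome, 24254 on the null array and 42465 on the wild-type array, so sex-linked genes differed too. The part of these differences in the ratios below was not tested, except that scaling on the hybridization controls is given beside the main result.

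None of the 5 measured genes was 2-fold apart between the arrays. Their log2 ratios of null over wild type ran from -0.27 for Thbs4 to 0.53 for Kitl, with 4 of 5 above 0 and a median of 0.15. Over all 13315 measured genes the median was 0.086, and 56.6% lay above 0. At least 2-fold higher on the null array were 0 of the 5 genes, against 6.01% of all measured genes, and at least 2-fold lower were 0, against 5.36%. Other scalings shifted that background to 4.60% higher and 6.24% lower with ratios centred on their median, 4.16% and 6.13% with quantile normalization, and 2.71% and 7.40% with loess on signal, and 0 of the 5 genes passed in any of these. The range covered by the 5 genes holds 52.1% of all measured genes, whose quartiles were -0.30 and 0.46. Kitl lay above the upper quartile, and the other measured members lay between the quartiles. Scaled on the hybridization controls in place of the common mean, all 5 genes were at least 2-fold lower. So were 74.7% of the 13866 genes measured on that scale. The median of the members was -1.66 there, and the median of all measured genes was -1.60. Against 0, Kit, Kitl, Ano1 and Gpr20 turned from above on the common-mean scale to below on the other, while Thbs4 was below on both. The member median lay close to the median of all genes on either scale. Measured against that median, Kitl and Gpr20 were above it and Thbs4 below it as reported and under each of the 9 alternatives that change a ratio, while Kit and Ano1 changed sides. All directions below are on the common-mean scale. In whole tissue, fewer cells of a type and less RNA per cell cannot be told apart.

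**Figure D1:**
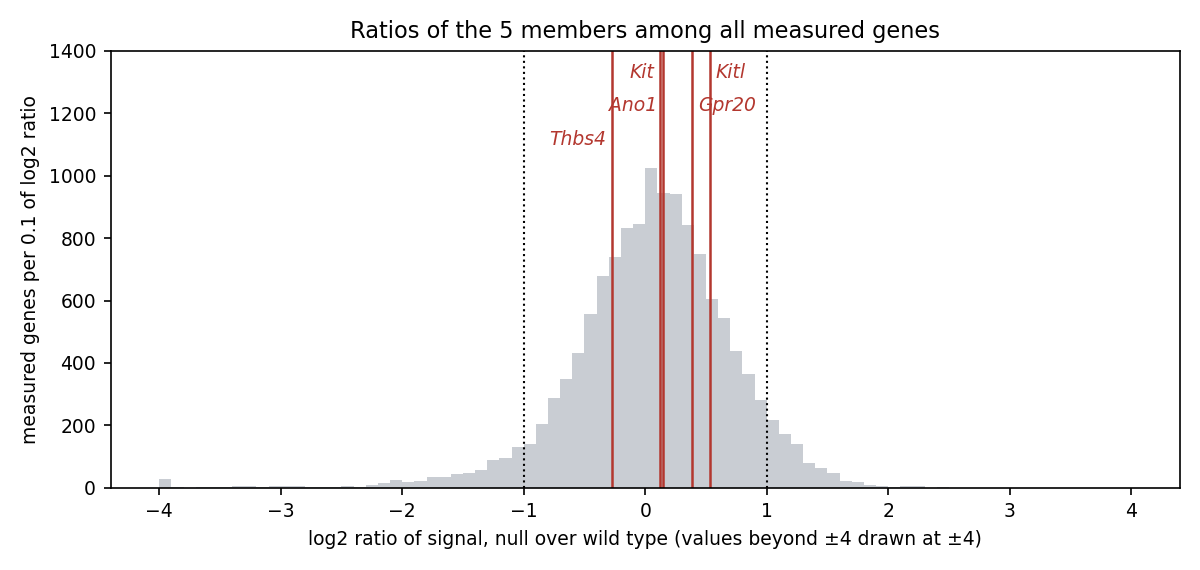
Histogram of the log2 ratio of null over wild-type signal for the 13315 measured genes (grey, x axis in log2 units, y axis in genes per bin), with the 5 members as red lines and 2-fold in either direction as dotted lines. All 5 members lie between the dotted lines, from -0.27 (Thbs4) to 0.53 (Kitl).

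Kitl, the ligand, was the member with the highest ratio. Its brightest probe set, 1415855_at, read 13568 on the null array and 9391 on the wild-type array, 1.44-fold higher. This ratio exceeded that of 78.7% of measured genes. It is a log2 ratio of 0.53, within the SD of 0.56 between probe sets of 1 gene. The probe set 1448117_at read 2506 on the null array and 1206 on the wild-type array, 2.08-fold higher. It was the 1 of 9 measured member probe sets past 2-fold, against 5.94% of the 22203 measured probe sets of named genes. None of the 9 was at least 2-fold lower, against 4.94%. The other Kitl probe sets lay below the limit on the wild-type array and give bounds only. Probe set 1426152_a_at read 707 on the null array and 347 on the wild-type array, at least 1.45-fold higher, and 1415854_at read 530 and 222 on the null and wild-type arrays, at least 1.08-fold higher. All 4 Kitl probe sets thus read higher on the null array, by amounts that differed between them, with an SD of 0.38 between their log2 ratios, bounds included. As deposited, without the limit, the bounded pair read 2.04-fold and 2.39-fold higher. With no limit and a pseudocount of 16, 19.5% of all genes, each at its brightest probe set, were at least 2-fold higher. At least 2-fold lower were 9.37%. The share among dimmer probe sets such as this pair was not taken. Of the 4 Kitl probe sets, 3 are annotated to the same source sequence and are not independent measurements. As background, Kitl is made by smooth muscle and other cells around the interstitial cells of Cajal.

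Kit, the receptor whose loss of function depletes interstitial cells of Cajal in mouse gut, was nearly equal on the arrays at its brightest probe set. Probe set 1452514_a_at read 1229.6 on the null array and 1127 on the wild-type array, 1.09-fold higher, a log2 ratio of 0.13, which was -0.021 with quantile normalization and -0.043 with loess on signal. The ratio of 0.13 exceeded that of 52.9% of measured genes. The other, 1415900_a_at, read 651 on the null array and 181 on the wild-type array, below the limit, so that it counts as at least 1.33-fold higher. As deposited, without the limit, the second pair of signals is 3.59-fold apart, so the probe sets of Kit agreed in direction and not in size. Higher readings on the null array were common without a limit. With a pseudocount of 16 in its place, 19.5% of all genes, each at its brightest probe set, were at least 2-fold higher. At least 2-fold lower were 9.37%. The share among dimmer probe sets such as 1415900_a_at was not taken.

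Ano1, the calcium-activated chloride channel, was measured by 1 of its probe sets. Probe set 1459713_s_at read 863 on the null array and 778 on the wild-type array, 1.11-fold higher, a log2 ratio of 0.15, which was -0.19 with quantile normalization and -0.29 with loess on signal. Its suffix marks a probe set whose probes may match transcripts of more than 1 gene. The other, 1426571_at, read 106 on the null array and 273 on the wild-type array, below the limit on both, and gives no ratio. The deposited signals of the pair therefore ran in opposite directions, and the Ano1 ratio rests on the less specific of them.

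Gpr20, an orphan G protein-coupled receptor found on interstitial cells of Cajal and the stromal tumors related to them, read 1941 on the null array and 1483 on the wild-type array at its 1 probe set. It was 1.31-fold higher, a log2 ratio of 0.39, above that of 70.9% of measured genes. Thbs4, a thrombospondin of the extracellular matrix that tendon and muscle also make, was the 1 member with a ratio below 0. It read 2189.8 on the null array and 2647 on the wild-type array, 1.21-fold lower, a log2 ratio of -0.27, and 26.6% of measured genes had a lower one. Each of these rests on a single probe set and is smaller than the SD of 0.56 between probe sets.

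**Figure D2:**
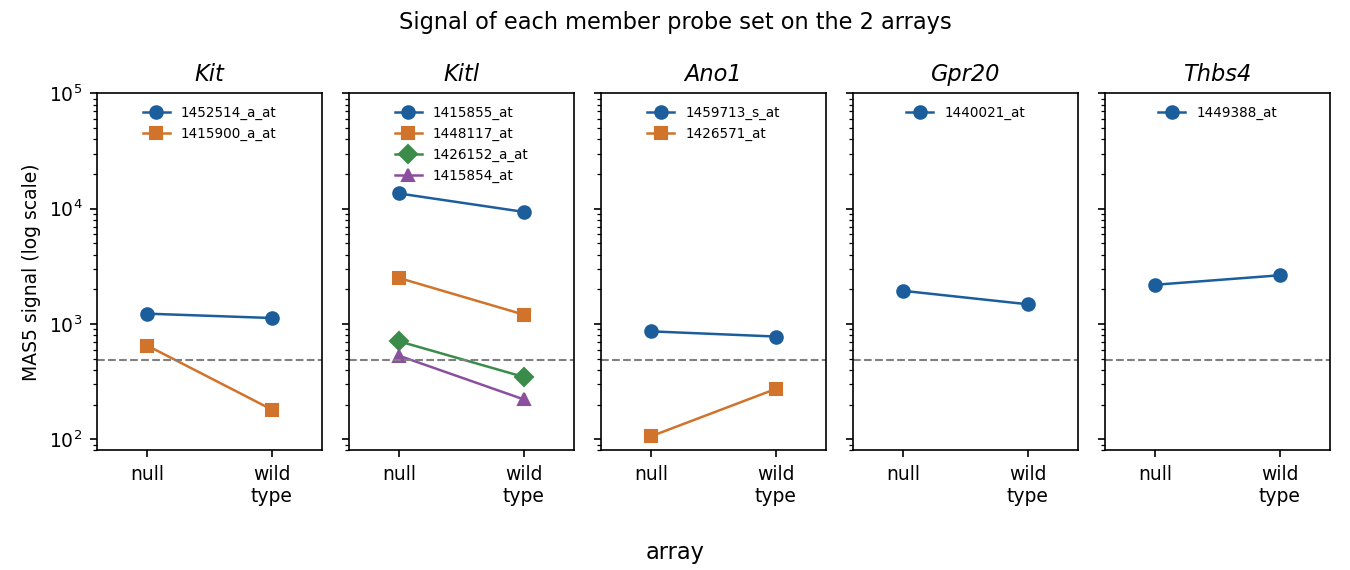
MAS5 signal (y axis, log scale) of each of the 10 member probe sets on the null array (left) and the wild-type array (right), 1 panel a gene and 1 line a probe set; the dashed line is the low-signal limit of 489. Lines that cross the dashed line belong to the 3 probe sets with a bound (1 of Kit and 2 of Kitl), and 1 probe set of Ano1 stays under it on both arrays.

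Sequences just upstream of the members are shown because Myf5 and Myod1 bind the E-box, written CANNTG, a motif that many other factors of their class bind too. RefSeq's promoter windows (build GRCm38.p6, 250 bases before to 50 after the transcription start) held Kit, Kitl, Ano1, Etv1 and Thbs4. The receptor, its ligand and the pacemaker channel are printed 5′ to 3′ on the gene's strand, with each E-box in capitals.
Kit, chr5:75574737-75575036, plus strand: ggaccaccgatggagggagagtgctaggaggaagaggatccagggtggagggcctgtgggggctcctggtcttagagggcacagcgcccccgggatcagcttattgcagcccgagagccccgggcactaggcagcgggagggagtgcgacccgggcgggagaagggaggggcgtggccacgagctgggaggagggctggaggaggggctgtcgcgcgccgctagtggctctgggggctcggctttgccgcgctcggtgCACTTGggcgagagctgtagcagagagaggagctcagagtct
Kitl, chr10:100015571-100015870, plus strand: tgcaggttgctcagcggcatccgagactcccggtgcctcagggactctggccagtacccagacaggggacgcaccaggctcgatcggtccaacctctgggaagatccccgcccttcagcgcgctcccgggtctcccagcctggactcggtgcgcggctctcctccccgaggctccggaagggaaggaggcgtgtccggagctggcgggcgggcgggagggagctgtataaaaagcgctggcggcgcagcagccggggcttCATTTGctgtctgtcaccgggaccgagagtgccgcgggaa
Ano1, chr7:144738524-144738823, minus strand: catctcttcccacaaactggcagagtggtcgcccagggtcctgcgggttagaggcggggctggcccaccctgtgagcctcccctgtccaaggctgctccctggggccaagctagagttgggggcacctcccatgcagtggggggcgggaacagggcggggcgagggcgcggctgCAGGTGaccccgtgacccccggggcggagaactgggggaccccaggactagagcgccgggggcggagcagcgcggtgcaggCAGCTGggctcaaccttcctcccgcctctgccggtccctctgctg

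Kit and Kitl each held 1 E-box, CACTTG and CATTTG, starting at position 9 in Kit and 11 in Kitl, counted from 1 at the transcription start. A second Kit window, from a start further along, holds the same E-box at position 5. Ano1 and Thbs4 held 2 each, and the 2 windows of Etv1 held 0 and 3. The motif reads as an E-box on both strands, and 72.3% of the 32851 promoter windows of this length hold at least 1. The form CAGCTG, often bound by these muscle factors, occurs in 16.3% of all windows and, among the members with a window, in Ano1. The CArG box, the site of the smooth muscle regulator SRF, occurs in 1.63% of windows and in none of the members' windows. These matches describe the letters and say nothing of binding.

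Genes that carry the signal of Kit into the cell were spread around equal signal. In that list of 19 measured genes, 2 read lower by 2-fold or more and 0 higher, and the median log2 ratio was -0.066 (all genes 0.086). Akt1, a kinase activated downstream of Kit through phosphoinositide 3-kinase, read 1123 on the null array and 3745 on the wild-type array, 3.33-fold lower. Pik3cd, a catalytic subunit of phosphoinositide 3-kinase, read 69764 on the null array and 151813 on the wild-type array, 2.18-fold lower. That wild-type signal exceeded the 131127 of the smooth muscle marker Acta2. The other measured probe set of Pik3cd read 590 on the null array and 219 on the wild-type array, below the limit, a log2 ratio of at least 0.27. The probe sets of Pik3cd thus differed in direction and in level, and its place among the lower genes rests on 1 of them. In the list of ERK and ETS output genes, which report growth factor signalling in general, 0 of 7 measured genes were 2-fold apart in either direction (median -0.15). Its 2 brightest were Spred1, 7448 on the null array and 8309 on the wild-type array, and Spry2, 6652 and 5278 on the null and wild-type arrays, both inhibitors of this pathway. The other probe sets of Spred1 had log2 ratios from -0.01 to 0.54, bounds included. That of Spry2 had 1.46, a bound past 2-fold. The ETS factor Etv4, a relative of Etv1, lay below the limit on both arrays, and Etv5, another, read 567 on the null array and 863 on the wild-type array.

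Of the genes that handle calcium and chloride in pacemaking, 14 were measured (median 0.16, members 0.15, all genes 0.086). At least 2-fold lower was 1 of them, and 0 were higher. The 1 was Stim1, the sensor of store calcium, at 736 on the null array and 1736 on the wild-type array, 2.36-fold lower, with a log2 ratio of -0.43 at its other probe set. Slc12a2, which loads cells with the chloride that leaves through Ano1, read 14245 on the null array and 16805 on the wild-type array, and its other probe sets disagreed, with log2 ratios of -1.24 and 0.32. Among 9 measured other genes reported in interstitial cells of Cajal, 1 read at least 2-fold lower and 0 higher (median 0.16). It was the hyaluronan receptor Cd44, which epithelium also makes, at 2586 on the null array and 7159.5 on the wild-type array, 2.77-fold lower, with a log2 ratio of -1.75 at its other probe set.

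The relatives of the members showed no common direction. Of the other anoctamins 3 were measured and 0 were 2-fold apart (median -0.20), the 2 brightest being Ano6, at 5387 on the null array and 6193 on the wild-type array, and Ano10, at 566 on the null array and 751 on the wild-type array. The other probe set of Ano6 had a log2 ratio of -0.90. Of the 4 thrombospondins other than Thbs4, 1 read at least 2-fold lower and 0 higher (median 0.055). It was Thbs3, at 145 on the null array and 1320.2 on the wild-type array, at least 2.70-fold lower. Of 7 measured receptors and ligands of Kit's class, 1 was higher and 1 lower (median -0.047). Csf1, the macrophage growth factor, was 2.24-fold higher, with log2 ratios of 0.73 and -0.16 as bounds at its other probe sets. The pericyte and smooth muscle receptor Pdgfrb was 2.71-fold lower.

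Cells next to the interstitial cells of Cajal were read from their own markers. Of 9 smooth muscle markers, 3 passed 2-fold upwards and 0 downwards. Their median was 0.76, with a summed signal of 656541 on the null array and 323926 on the wild-type array, most of it from Mylk and Acta2. Without these the other 7 summed to 87082 on the null array and 77284 on the wild-type array, 1.13-fold higher. The light chain kinase Mylk was 2.83-fold, the leiomodin Lmod1 at least 2.67-fold and the coactivator Myocd 2.44-fold higher, and the other probe sets of Mylk had log2 ratios of 1.86 and 0.08. Acta2 was 1.85-fold and Myh11 1.69-fold higher, while Cnn1 and Tagln, also contractile genes, read 1.69-fold and 1.38-fold lower. Kitl, the highest member at 0.53, lay below the smooth muscle median of 0.76, and the difference was not tested. In the list for fibroblast-like cells that carry PDGFRA and sit beside the interstitial cells of Cajal, 0 of 3 measured genes were 2-fold apart (median 0.86). Pdgfra itself read 6812 on the null array and 7036 on the wild-type array, Foxf1 read 7716 on the null array and 4212 on the wild-type array, and the defining channel Kcnn3 and receptor P2ry1 lay below the limit on both. The other probe sets of Pdgfra and Foxf1 had log2 ratios of 0.63 and -0.44, each a bound. Of 10 measured enteric neuron markers, 2 read at least 2-fold lower and 0 higher (median -0.22), the GDNF receptor Ret by 2.38-fold and Snap25 by 2.03-fold, with -0.02 and 0.25 on the log2 scale as bounds at their other probe sets. Among those with a ratio above 0 were Nos1 (0.33) and Chat (0.46), which make the transmitters nitric oxide and acetylcholine. None of 6 measured glial markers was 2-fold apart (median 0.11), among them Erbb3, at 11224 on the null array and 18562 on the wild-type array, and Fabp7, at 1942 on the null array and 2116 on the wild-type array.

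**Figure D3:**
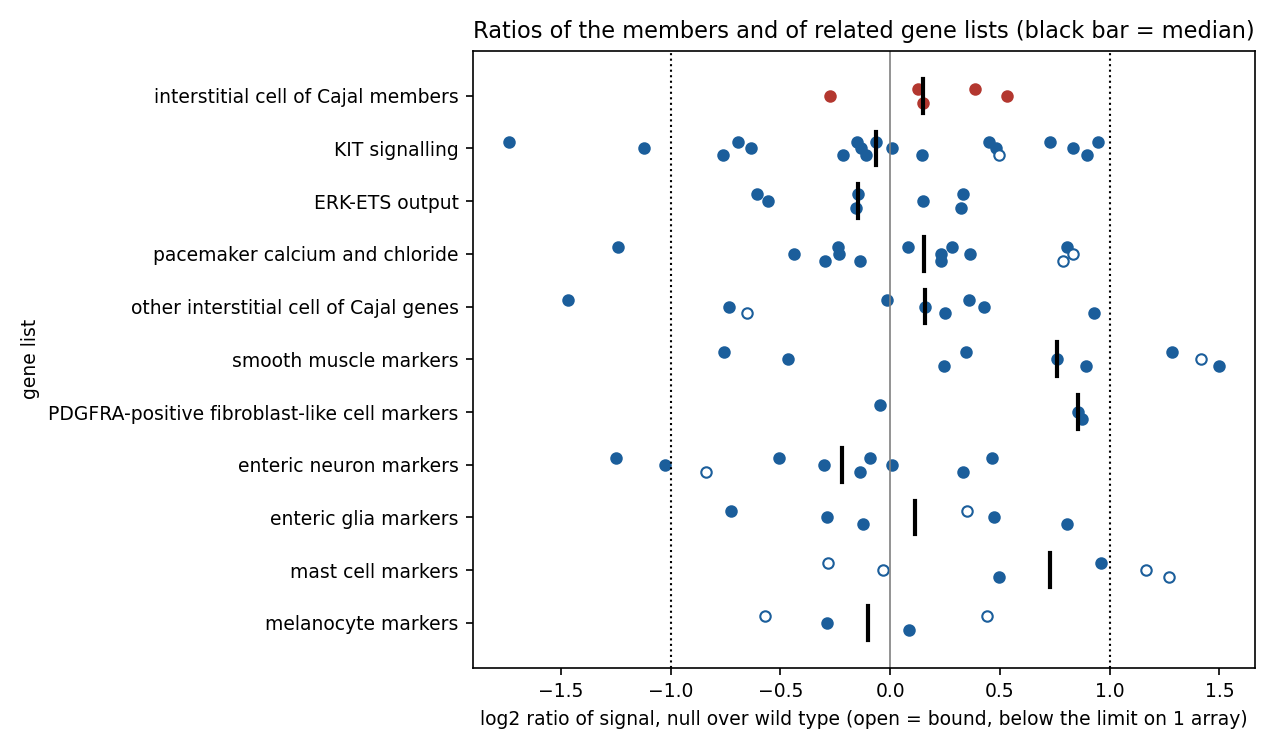
Log2 ratio of null over wild-type signal (x axis) for each measured gene of the members (red) and of 10 related lists (blue), 1 list a line; open circles are bounds, black bars medians, dotted lines 2-fold. The 5 members lie between -0.27 and 0.53 and the smooth muscle markers have a median of 0.76.

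Markers of other cells that make Kit were read beside it. Of the 10 mast cell markers, 4 reached the limit on the null array and 4 on the wild-type array, with a summed signal of 11141 on the null array and 6268 on the wild-type array. Most of that sum came from 1 marker, Hdc, at 6214 on the null array and 3190 on the wild-type array. The mast cell proteases Cma1 and Tpsb2 read higher by at least 2.41-fold and at least 2.24-fold, while Cpa3 read 417 on the null array and 594 on the wild-type array, and Fcer1a and Mcpt4 lay below the limit on both. Cma1 and Tpsb2 were the 2 of 6 measured past 2-fold, with 0 in the other direction and a median of 0.73, and 4 of the 6 ratios are bounds. Of 8 melanocyte markers, 4 were measured and 0 were 2-fold apart (median -0.10), with a summed signal of 4411 on the null array and 3979 on the wild-type array. Among them Mitf read 1216 on the null array and 1147 on the wild-type array, and Sox10, shared with glia, read 1012 on the null array and 1236 on the wild-type array, with a log2 ratio of 1.06 at its other probe set. The pigment cell genes Dct, Tyr, Tyrp1 and Mlana lay below the limit on both arrays. Of 8 measured blood progenitor and thymocyte markers, 3 were higher and 1 lower (median 0.57), with a summed signal of 17728 on the null array and 8582 on the wild-type array. Ptprc was 8.57-fold, Rag1 at least 5.77-fold and Myb 2.10-fold higher, and Cd8a 2.20-fold lower at its brightest probe set, with log2 ratios of 0.04, 0.71 and 0.80 at its others, the last pair as bounds. The other probe sets of Myb had log2 ratios of 0.43, as a bound, and 0.67. The part of these cells in the Kit signal was not tested.

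Thbs4 and Ano1 have sources outside the interstitial cells of Cajal, whose markers were read beside them. All 9 striated muscle markers, from a tissue that makes Thbs4, were at least 2-fold lower (median -6.18), with a summed signal of 6565 on the null array and 348743 on the wild-type array. The myosin Myh3 was 161-fold, titin (Ttn) 105-fold, troponin Tnnc2 at least 94.5-fold and actin Acta1 74.4-fold lower, beside 1.21-fold for Thbs4. Of 5 measured markers of tendon, another source of Thbs4, 0 were 2-fold apart (median 0.38), with Kera at 5086 on the null array and 3793 on the wild-type array and Fmod at 1229 on the null array and 803 on the wild-type array. The other probe sets of Fmod had log2 ratios from -0.00 to 1.19, all bounds. Of epithelia, where Ano1 can be made, 7 esophageal markers had a median of -0.17 with Krt14 2.46-fold lower. The 4 measured airway markers had a median of 0.51. Among these Scgb3a2 was 7.66-fold lower, while Cyp2f2, Sftpc and Foxj1 had log2 ratios of 0.52, 0.75 and 0.50. Cyp2f2 was the brightest of them, at 112806 on the null array and 78461 on the wild-type array. Of 4 measured cartilage markers 1 was higher, Sox9 by 2.09-fold, and 0 lower (median 0.74). The part of these tissues in the Thbs4 and Ano1 signals was not tested. For the labelled tissue, all smooth muscle and esophageal epithelium markers reached the limit on both arrays, except Lmod1 on the wild-type array.

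The ratios of the members under other processing separate them into those that hold a side and those that do not. Over the main setting and its alternatives, the log2 ratio of Kitl ran from -1.30 to 0.68, that of Gpr20 from -1.45 to 0.39 and that of Thbs4 from -2.11 to -0.22, each keeping its side of the median of all genes. The lowest value of each came from scaling on the hybridization controls, where Kitl and Gpr20 turned negative. Kit was above that median in 4 of 9 settings that measured it and Ano1 in 4 of 8.

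**Figure D4:**
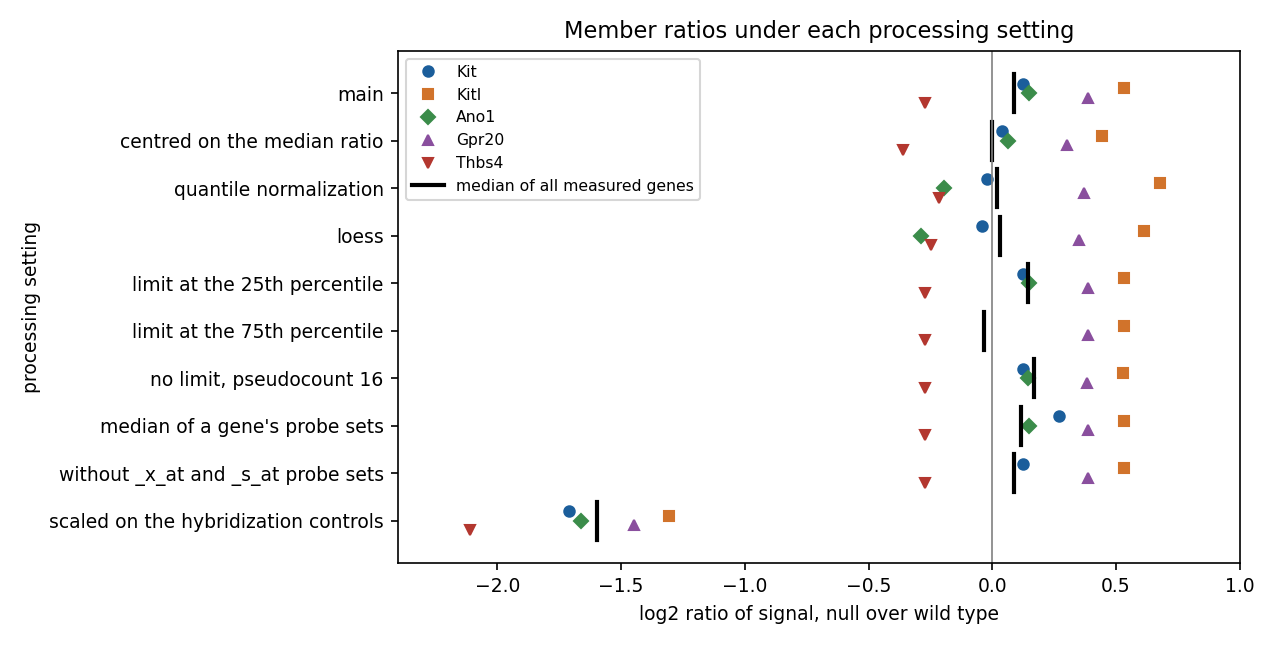
Log2 ratio of null over wild-type signal (x axis) of each member (symbols) and the median of all measured genes (black bars) under the main setting and 9 alternatives (y axis). The members stay on both sides of the black bar in each setting, from -2.11 (Thbs4, scaled on the hybridization controls) to 0.68 (Kitl).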

How the data were processed

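Total RNA, 6 µg a sample, was labelled and hybridized to Affymetrix arrays, 1 array per genotype. The deposited values are signal intensities that the authors summarised using MAS5 (per the submitters' processing notes); the sources used here give neither its version nor its settings. MAS5 condenses the probes of a probe set into 1 value and scales each array, which fixes the mean and hides any overall difference. Probe sets were named from GEO's platform annotation, updated by Entrez ID through the RefSeq table of GRCm38.p6, which held 34741 of the 34945 probe sets with 1 symbol. Another 932 have several symbols and 9160 none here, and 64 are controls.

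Log2 ratios were null over wild type after raising signals to the limit. Genes under it on both arrays (4878) count as not measured, and those under it on 1 array (2969) have a bound only. Differences of at least 2-fold were counted. The members and the 19 gene lists were chosen with earlier results of these data known. All members are named with every probe set. From each list come up to 4 genes at least 2-fold apart or, where none was, the 2 brightest, plus Cpa3, Dct, Pdgfra, Ptprc, Acta2, Myh11, Myh3, Myf5 and Myod1. Other genes in the text, such as Eif2s3y, Xist and Slc12a2, were picked with their values in view. Precision is limited by the number of arrays. The code was tested on simulated data. Python 3.11.15, numpy 2.4.6, pandas 2.3.3 and statsmodels 0.14.6 were used.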

Additional observations from a re-analysis of the deposited data

How the results depend on the processing

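Alternatives tried were other scalings (ratios centred on their median, quantiles made equal, or loess with a span of 0.3), other limits (the 25th percentile, the 75th, or none and a pseudocount of 16), other choices of probe set (a gene's median, or without IDs ending in _s_at or _x_at), counting at 1.5-fold and, chosen after seeing the data, scaling on the hybridization controls. In the planned ones 0 members were past the threshold in either direction. On the added scale 5 were at least 2-fold lower (median -1.66). Of the 13866 genes measured on it, 5 (0.036%) were at least 2-fold higher and 10355 (74.7%) lower. The median of the members was -0.021 with quantile normalization and -0.043 with loess, and the cause was not tested. Kitl and Gpr20 stayed above 0 in 8 of 9 alternatives that give a ratio, Kit in 5 of 8 and Ano1 in 4 of 7, and Thbs4 stayed below 0 in 9 of 9. With the limit at the 75th percentile Kit and Ano1 were not measured, and Ano1 was not measured without _s_at probe sets. Among all genes, the count at least 2-fold higher was 361 of 13315 with loess. With the limit at the 25th and 75th percentiles it was 2742 of 16539 and 148 of 7980, and with no limit 3548 of 18193. The count lower was 1232, 383 and 1704 in the last 3. At 1.5-fold the counts higher and lower were 2505 and 1743 of 13315. No paired analysis was possible because each genotype has 1 array. The low-signal limit leaves 3 of 9 measured member probe sets with a bound.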
